A study of Mus musculus with 10 samples.

Results

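Solute carriers are membrane proteins that move amino acids, sugars, nucleosides, vitamins, ions and metals across the plasma membrane and the membranes of organelles. Many work by exchange or by co-transport with sodium or protons, and some, such as the light chains of the amino acid exchangers, need a partner subunit to reach the membrane. Macrophages rely on carriers of the endosome and lysosome to export the products of digested cargo, and on mitochondrial carriers to exchange metabolites and nucleotides with the cytosol. The genes described here are the solute carriers counted in CNS-associated macrophages, the macrophages of the borders of the brain. A gene was included if its symbol starts with Slc followed by a digit and its mean over the 10 libraries was at least 10 CPM, the count of a gene per 1000000 counts of its library. Pseudogene and opposite-strand symbols and 6 carriers of iron and haem or of other cell types were left out. This gave 142 genes of 384 such symbols, in a table of 53546 symbols, and 232 eligible symbols lay under the threshold, 104 of them with 0 counts in every library. The genes were thus chosen by their mean level, and levels are described without a test. Values given with ± are the mean and SD over the n libraries of a genotype. The rule uses no difference between genotypes, but the genes were chosen with earlier results of these data known.

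The cells were sorted from the brains of individual, untreated C57BL/6N mice aged 6 to 8 weeks, and bulk RNA sequencing was made from 500 pg of total RNA per library. There were 4 mice homozygous for Mrc1-CreERT2 (Mrc1-CreERT2/Mrc1-CreERT2), 3 heterozygous mice (Mrc1-CreERT2/wt) and 3 wild-type mice. CreERT2 is a Cre recombinase that enters the nucleus when an oestrogen receptor ligand is given, and by its name the allele places it at Mrc1, the mannose receptor gene. No floxed target and no Cre induction are named in the labels, and no source used here describes the gate of the sort. The comparisons ask whether carrying the allele changes the transcripts of these macrophages.

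Libraries held 22986972 to 36575446 counts. Mrc1, the gene at which the allele sits, was at 3065 to 3748 CPM in wild-type, 1985 to 2286 CPM in heterozygous and 441 to 542 CPM in homozygous libraries. Of the 9 border macrophage markers checked, Mrc1 among them, all had counts, and their sum was 16644 to 18401 CPM in wild-type, 15936 to 18824 CPM in heterozygous and 19181 to 19438 CPM in homozygous libraries. A higher mean in homozygous than in wild-type libraries was seen for 8 of the 9, and Mrc1, which was lower, is part of the sum. Of the lists for other cells, those of microglia, monocytes and B cells had lower sums and those of neutrophils and endothelium higher sums in every homozygous than in every wild-type library. The 7 microglia markers summed to 3365 to 8013 CPM in wild-type and 1613 to 2603 CPM in homozygous libraries, and 0 of the 7 had a higher mean in homozygous libraries. The 4 monocyte markers, of which Chil3 was at 0 in every library, summed to 75.7 to 163 CPM in wild-type and 5.72 to 13.5 CPM in homozygous libraries. The 4 B cell markers summed to 429 to 706 CPM in wild-type and 251 to 410 CPM in homozygous libraries. The 4 neutrophil markers summed to 190 to 317 CPM and 485 to 1052 CPM, with S100a8 and Ly6g at 0 in every library and 1 of the 4 at a higher mean in homozygous libraries. The 4 choroid plexus markers, of which Slc4a5 was at 0 throughout, reached 347 CPM in a wild-type, 108 CPM in a heterozygous and 66.7 CPM in a homozygous library. The 4 erythroid markers summed to 2.11 to 133 CPM in wild-type and 0 to 80.2 CPM in heterozygous libraries. In homozygous libraries they summed to 1.13 to 643 CPM, which overlapped the wild-type range, and all 4 had a higher mean there than in wild-type libraries. The 7 endothelial markers summed to at most 2.57 CPM in wild-type, at most 5.68 CPM in heterozygous and 2.59 to 3.73 CPM in homozygous libraries, with Cldn5, Ly6c1 and Slc22a8 at 0 throughout. Only 1 of these 7 had a higher mean in homozygous than in wild-type libraries, and all these sums are near 0. The part of these other cells in the values below was not tested. In bulk RNA, fewer cells of a type and less RNA per cell cannot be told apart.

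Together the 142 genes took 0.9999% to 1.28% of the counts of a library. They were led by a few genes, and the 10 most counted held 35.1% of their summed CPM. The median gene was at 44.1 CPM, 34 genes were at 100 CPM or more and 32 were under 20 CPM. The genes just inside the threshold were Slc9a3r2, Slc41a1 and Slc35e2, at 10.8, 10.4 and 10.1 CPM, and those just outside were Slc25a13, Slc9a7 and Slc25a23, at 9.27, 8.62 and 8.60 CPM. Levels of different genes can be set side by side only per length, and a length in GENCODE vM21 was found for 139 of the genes. Per kb of exon, the highest mean levels were those of Slc25a5 (235 CPM per kb), the ADP/ATP exchanger of the inner mitochondrial membrane, Slc9a9 (169 CPM per kb), a sodium/proton exchanger of endosomes, and Slc3a2 (137 CPM per kb), the heavy chain shared by several amino acid exchangers. Slc29a1, an equilibrative nucleoside transporter, followed at 110 CPM per kb. Near-identical copies of Slc25a5 exist as pseudogenes, so its count is uncertain.

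**Figure D1:**
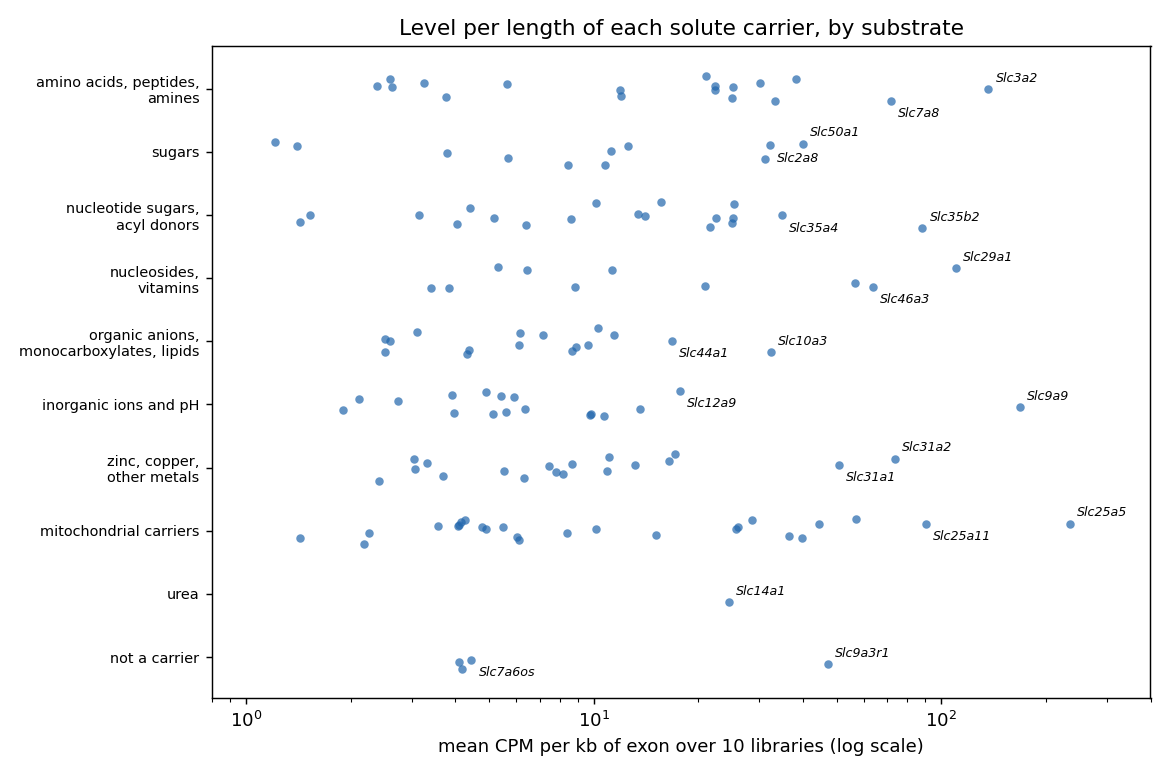
Mean CPM per kb of exon over the 10 libraries (x axis, log scale) for the 139 genes with a length, each a point, by substrate (y axis, points spread vertically at random within a row); the leading 2 genes of each row are named. Slc25a5, Slc9a9, Slc3a2 and Slc29a1 lie above 100 CPM per kb, and most genes of every row lie far below.

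The promoters of these genes were mostly rich in G and C. RefSeq on GRCm38.p6 lists start sites for 110 of the 142 genes, and the windows run from 250 bases before to 50 bases after each start. The median GC content of their 147 windows was 61.3%, against 52.7% over all 32851 listed windows and 61.0% over the windows of the tested genes at 10 CPM or more. The GC box GGGCGG, on either strand, occurred in 72.8% of the windows, against 35.7% of all windows and 64.4% of those of the tested genes at 10 CPM or more. The E-box CACGTG occurred in 14.3%, against 7.15% and 10.7%. The metal response element core, TGCACNC or TGCGCNC, occurred in 40.8%, against 25.7% and 36%. The ETS core CGGAAG occurred in 29.9%, against 16.9% and 34.8%, and so less often than in the tested genes at 10 CPM or more. The share with these letters was therefore closer to that of other genes counted at this level than to that of all genes. The windows of the leading genes by level per kb are printed because they differ in this respect. They read 5′ to 3′ along the gene's strand, with GC boxes in capitals, and none of them holds CACGTG.
Slc25a5, chrX:36795347-36795646, plus strand: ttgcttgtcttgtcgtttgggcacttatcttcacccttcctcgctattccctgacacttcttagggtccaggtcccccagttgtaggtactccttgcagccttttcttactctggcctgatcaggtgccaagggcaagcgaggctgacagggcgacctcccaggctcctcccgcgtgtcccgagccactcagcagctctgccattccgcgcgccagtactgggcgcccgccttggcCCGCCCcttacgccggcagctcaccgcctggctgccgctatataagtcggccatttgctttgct
Slc9a9, chr9:94669642-94669941, plus strand: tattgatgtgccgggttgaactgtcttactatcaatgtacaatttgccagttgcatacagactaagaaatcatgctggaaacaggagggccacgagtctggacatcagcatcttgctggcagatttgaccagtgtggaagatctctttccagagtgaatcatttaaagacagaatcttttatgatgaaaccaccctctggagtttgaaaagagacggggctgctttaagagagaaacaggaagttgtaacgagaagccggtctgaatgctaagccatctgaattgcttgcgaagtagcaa
Slc3a2, chr19:8713848-8714147, minus strand: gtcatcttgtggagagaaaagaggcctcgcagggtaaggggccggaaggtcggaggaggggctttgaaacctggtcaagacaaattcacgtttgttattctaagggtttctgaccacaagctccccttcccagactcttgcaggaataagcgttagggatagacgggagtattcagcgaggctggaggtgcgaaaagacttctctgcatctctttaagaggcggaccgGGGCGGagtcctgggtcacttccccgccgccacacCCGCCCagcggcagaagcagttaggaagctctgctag
The Slc25a5 window holds 1 GC box and the Slc3a2 window 2. The Slc9a9 window, with a GC content of 43.7%, holds none of these motifs, although the gene was the most counted of the 142 and ranked 104 among all genes tested.

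Carriers of amino acids, peptides and amines formed the group with the most counts, 20 genes with a summed level of 2540 ± 209 CPM (n = 3) in wild-type, 2622 ± 61.2 CPM (n = 3) in heterozygous and 2741 ± 237 CPM (n = 4) in homozygous libraries. Slc3a2 was at 433, 479 and 530 CPM in wild-type mice, 460, 521 and 426 CPM in the heterozygous and 523, 527, 400 and 532 CPM in the homozygous ones. The genotypes overlapped throughout, and the gene varied little, with a coefficient of variation of 10.4% over the 10 libraries. Of its light chains, Slc7a8, which carries neutral amino acids, was at 319 ± 57.6 CPM (n = 3) in wild-type libraries, and Slc7a7, which exchanges cationic for neutral amino acids, at 87.3 ± 27.3 CPM (n = 3). Per kb of exon they were at 71.8 and 30.2 CPM on average. Slc6a6, the taurine transporter, and Slc43a2, a facilitative carrier of large neutral amino acids, were at 317 ± 39.8 and 205 ± 42.3 CPM (n = 3) in wild-type libraries. Carriers of the lysosome were also present. Slc17a5, which exports sialic acid from lysosomes, was at 70.8 ± 42.4 CPM (n = 3), and Slc38a9, an arginine sensor of the lysosomal membrane that acts on the growth kinase mTORC1, at 37.9 ± 18.8 CPM (n = 3).

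The 11 genes of sugar transport summed to 674 ± 15.1 CPM (n = 3) in wild-type, 665 ± 127 CPM (n = 3) in heterozygous and 590 ± 70.5 CPM (n = 4) in homozygous libraries. Slc37a2, a glucose 6-phosphate exchanger of the endoplasmic reticulum, was the most counted, at 233 ± 53.8 CPM (n = 3) in wild-type libraries. Slc2a8, an intracellular glucose transporter, was at 91.6 ± 23.4 CPM (n = 3), and Slc2a1, the common glucose transporter of the plasma membrane, was at 25.4 ± 14.3 CPM (n = 3). Per kb of exon, Slc2a8 was at 32.1 CPM and Slc2a1 at 8.43 CPM, as means over all libraries. Slc2a5, a fructose transporter that is also 1 of the 7 microglia markers above, varied widely, at 7.45, 32.6 and 143 CPM in the wild-type, 16.8, 40.04 and 88.2 CPM in the heterozygous and 17.9, 46.3, 30.7 and 6.48 CPM in the homozygous libraries. Its coefficient of variation was 99.1%, and it was highest in wild-type replicate 3.

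A group of 19 genes was assigned by family to the carriers of nucleotide sugars and acyl donors into the endoplasmic reticulum and Golgi. Such carriers supply glycosylation and sulfation. The assignment does not show that each of the 19 genes carries these substrates. Slc35b2 was the most counted of the group. It carries the sulfate donor into the Golgi and was at 253 ± 69.3 CPM (n = 3) in wild-type, 293 ± 22.1 CPM (n = 3) in heterozygous and 277 ± 37.4 CPM (n = 4) in homozygous libraries. Slc35f6, Slc35a4 and Slc35e1 were at 124 ± 28.6, 126 ± 3.83 and 128 ± 23.3 CPM (n = 3) in wild-type libraries. The group summed to 1335 ± 76.0 CPM (n = 3) in wild-type and 1343 ± 117 CPM (n = 4) in homozygous libraries.

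Nucleoside and vitamin carriers were 11 genes. Slc29a1, a nucleoside transporter of the plasma membrane, was at 283, 390.7 and 525 CPM in wild-type, 480, 388 and 328 CPM in heterozygous and 451, 489, 479 and 614 CPM in homozygous libraries, which overlapped. Slc29a3, its lysosomal relative, was at 343 ± 92.0 CPM (n = 3) in wild-type and 326 ± 32.6 CPM (n = 4) in homozygous libraries. Slc46a3, a lysosomal carrier, and Slc23a2, a sodium-dependent vitamin C transporter, were at 145 ± 50.4 and 84.1 ± 18.4 CPM (n = 3) in wild-type libraries. Slc46a1, a proton-coupled folate transporter, was at 53.4 ± 15.5 CPM (n = 3). The group's sum was 1184 to 1226 CPM in heterozygous and 1239 to 1526 CPM in homozygous libraries, without overlap, and the wild-type libraries, at 903 to 1499 CPM, overlapped each.

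Among 16 carriers of organic anions, monocarboxylates and lipids, Slc44a1, a choline transporter, was at 123 ± 11.7 CPM (n = 3) in wild-type and 104 ± 11.3 CPM (n = 4) in homozygous libraries. Slc16a7, a lactate and pyruvate transporter, was at 128 ± 43.2 CPM (n = 3) and 108 ± 13.5 CPM (n = 4), and Slc10a3 at 73.3 ± 11.3 CPM (n = 3) and 58.6 ± 10.3 CPM (n = 4). The group summed to 667 ± 96.6 CPM (n = 3) in the first and 611 ± 45.2 CPM (n = 4) in the second.

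The 17 carriers of inorganic ions were dominated by Slc9a9. After it came Slc12a7, a potassium/chloride co-transporter, at 117 ± 41.1 CPM (n = 3) in wild-type libraries, Slc12a9 at 96.7 ± 23.6 CPM (n = 3) and Slc4a7, a sodium/bicarbonate co-transporter, at 80.7 ± 29.2 CPM (n = 3). The urea transporter Slc14a1, placed in no group, was at 63.5, 65.9 and 79.7 CPM in wild-type, 95.5, 109 and 116 CPM in heterozygous and 118, 55.9, 93.8 and 182 CPM in homozygous libraries. All 3 heterozygous libraries were above the wild-type ones, and the homozygous ones overlapped them.

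The 18 carriers of zinc, copper and other metals summed to 1070 ± 146 CPM (n = 3) in wild-type and 1144 ± 86.6 CPM (n = 4) in homozygous libraries. The copper transporters led, with Slc31a1 at 223 ± 48.5 CPM (n = 3) and Slc31a2 at 145 ± 38.4 CPM (n = 3) in wild-type libraries. Slc30a5, which loads zinc into the secretory pathway, was at 128 ± 18.5 CPM (n = 3). Of the 25 mitochondrial carriers, Slc25a5 was at 318, 369 and 408 CPM in wild-type, 411, 385.2 and 357 CPM in heterozygous and 366, 424, 405 and 426 CPM in homozygous libraries. Slc25a3, the phosphate carrier, had the smallest coefficient of variation of all 142 genes, 8.46%. Slc25a11, an oxoglutarate/malate exchanger, was at 109, 218 and 154 CPM in wild-type and 203 to 215 CPM in homozygous libraries, and its wild-type values spanned the homozygous ones.

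A few symbols that start with Slc name no carrier. Slc9a3r1 and Slc9a3r2 encode scaffold proteins of the exchanger Slc9a3, Slc4a1ap an adaptor protein, and Slc7a6os a gene on the strand opposite Slc7a6. They were kept because the rule takes them, and as the counting is not stated to use strand, reads of Slc7a6os and of an overlapping gene cannot be told apart. Slc9a3r1 was at 101 ± 40.97 CPM (n = 3) in wild-type libraries.

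**Figure D2:**
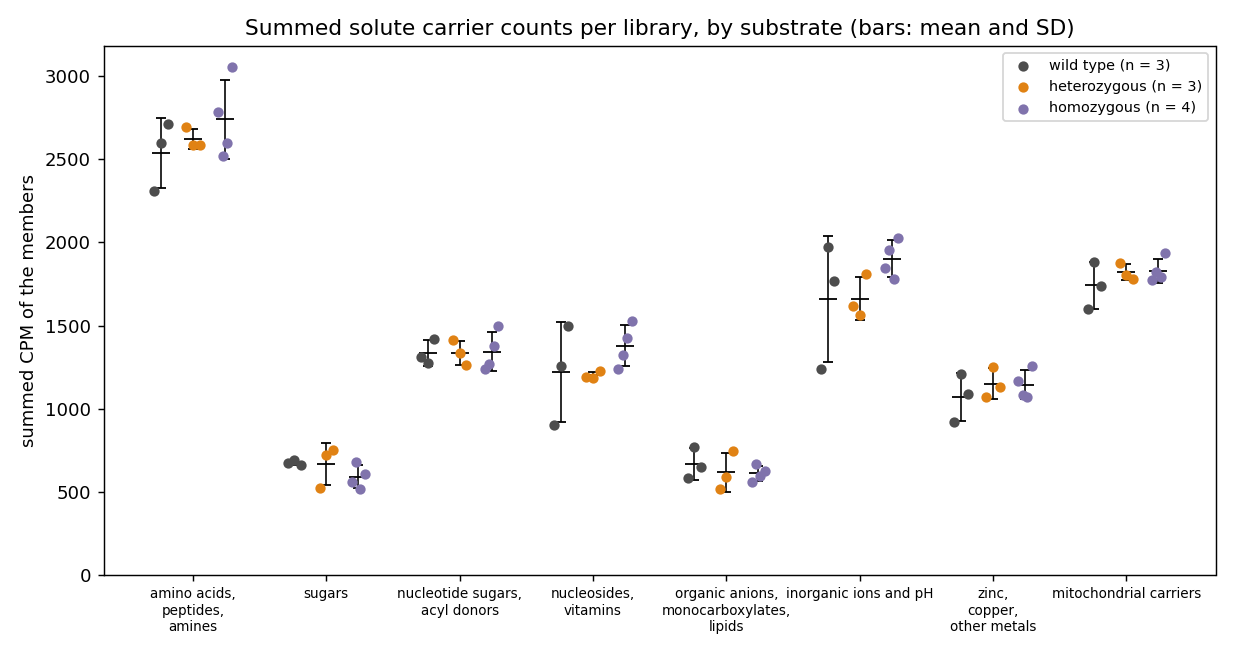
Summed CPM of the genes of each substrate group (y axis) in every library (points), by genotype, with mean and SD. Wild-type libraries overlap both other genotypes in every group of 4 or more genes, and wild-type replicate 1 is the lowest library for ions, at 1240 CPM, and for nucleosides and vitamins, at 903 CPM.

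Across all 142 genes the sum was lowest in wild-type replicate 1, at 9757 CPM, and highest in a homozygous library, at 12810 CPM, so that wild-type libraries (11126 ± 1189 CPM, n = 3) spanned most of the range. The coefficient of variation over the 10 libraries had a median of 32.8% over the 142 genes and of 31.1% over the 8133 tested genes at 10 CPM or more. It was under 20% in 27 and over 50% in 32 of the 142. At the variable end, 7 genes had 0 counts in at least 1 library. Among them, Slc2a6, a lysosomal member of the glucose transporter family, was at 0 in wild-type replicate 2 and homozygous replicates 1 and 2 and at 47.04 CPM in wild-type replicate 1.

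No solute carrier passed edgeR's test between any pair of genotypes. All 142 passed the filter on low counts and entered its quasi-likelihood version with 14023 genes, with Benjamini-Hochberg adjustment over all of them. Between homozygous and wild-type libraries 0 of the 142 were called, where 0.0642% of all genes were. At an unadjusted p under 0.05 there were 7 higher and 2 lower genes, where 4.56% and 2.96% of all genes were, so 9 of 142 against a background of 7.52%. Limma-voom called 0 as well, and DESeq2 called 2, Slc39a10 and Slc17a9, where these tools called 0.0713% and 2.09% of the genes to which they gave an adjusted p. The median log2 fold change was 0.04 over the 142 genes and 0.02 over all genes, with 76 of the 142 fitted above 0 against a background of 51.1%, and the median standard error (SE) of the 142 was 0.37. In counts simulated for this comparison, 8.70% of true 2-fold differences and 26.6% of true 4-fold ones were recovered by edgeR, and 52.3% of the 4-fold ones in genes over 20 CPM, so differences of these sizes could go uncalled.

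Slc39a10, a zinc importer of the plasma membrane, had the smallest p of the 142 in both comparisons with wild type. It was at 64.4, 63.03 and 68.9 CPM in wild-type mice, 87.0, 152 and 130 CPM in the heterozygous and 105, 128, 114 and 137 CPM in the homozygous ones. Every library with the allele lay above every wild-type library, and the heterozygous and homozygous values overlapped. Its log2 fold change was 0.89 (SE 0.20) between homozygous and wild-type libraries and did not pass over all genes (unadjusted p = 0.00109, adjusted p = 0.288 by edgeR). Between heterozygous and wild-type libraries it was 0.91 (SE 0.21, adjusted p = 0.658 by edgeR). Both comparisons use the same 3 wild-type libraries. DESeq2 called the gene in both, with adjusted p = 0.00574 and adjusted p = 0.0115, and over all alternatives the adjusted p ran up to 0.624 and 1.

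Slc39a9, another zinc carrier, was at 44.3, 85.7 and 47.6 CPM in wild-type and 111, 99.5, 107 and 62.5 CPM in homozygous libraries, which overlapped (log2 fold change 0.68, SE 0.28, adjusted p = 0.653 by edgeR). Slc39a13, a zinc carrier of the secretory pathway, was at 27.3, 23.9 and 30.5 CPM in wild-type and 54.5, 41.8, 46.4 and 34.02 CPM in homozygous libraries, which did not overlap. Over the 18 metal carriers 10 were fitted above 0 between homozygous and wild-type libraries, with a median of 0.03 and fitted values from -0.66 to 0.89. Slc31a1 and Slc31a2 overlapped between the genotypes.

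Slc9a9 was at 688, 1015 and 852 CPM in wild-type, 845, 856 and 907 CPM in heterozygous and 1097, 1102, 1029 and 1194 CPM in homozygous libraries. All 4 homozygous libraries lay above the other 6, the nearest of which was wild-type replicate 2. The log2 fold change was 0.38 (SE 0.12) against wild type and 0.35 (SE 0.12) against heterozygous libraries, and neither passed (adjusted p = 0.558 and 1 by edgeR). Without wild-type replicate 1, the lowest library, the difference from wild type was 0.25. Slc12a4, a potassium/chloride co-transporter, was at 34.9, 19.8 and 24.8 CPM in wild-type and 69.9, 68.1, 27.4 and 46.2 CPM in homozygous libraries, with 3 of 4 above all wild-type ones (log2 fold change 0.9998, SE 0.36, adjusted p = 0.606 by edgeR).

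Slc17a9, which loads ATP into vesicles, had the largest fitted difference from wild type of the 142. It was at 2.42, 3.79 and 4.45 CPM in wild-type, 1.51, 9.15 and 13.9 CPM in heterozygous and 14.5, 19.9, 27.8 and 11.5 CPM in homozygous libraries. The homozygous libraries lay above the wild-type ones, while the heterozygous values spanned from below the wild-type range into the homozygous range. Its log2 fold change of 2.37 (SE 0.76) did not pass (adjusted p = 0.558 by edgeR), and DESeq2 gave adjusted p = 0.0477. Slc7a6os was at 11.1, 18.04 and 12.3 CPM in wild-type and 22.1 to 28.4 CPM in homozygous libraries, without overlap (log2 fold change 0.90, SE 0.32, adjusted p = 0.590 by edgeR).

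In the other direction, Slc15a4, a histidine and peptide transporter of the endolysosome that also holds the adaptor Tasl for Toll-like receptor signalling, was at 158, 132 and 130 CPM in wild-type, 97.9, 126 and 79.3 CPM in heterozygous and 121, 106, 80.5 and 88.3 CPM in homozygous libraries. Every library with the allele was below every wild-type library. The log2 fold change was -0.50 (SE 0.20, adjusted p = 0.639) for homozygous and -0.47 (SE 0.21, adjusted p = 0.791) for heterozygous against the shared wild-type libraries by edgeR, and neither passed. Slc44a2, a choline transporter-like protein, was at 73.9, 45.5 and 94.9 CPM in wild-type and 17.9, 41.4, 54.4 and 27.9 CPM in homozygous libraries, which overlapped (log2 fold change -1.01, SE 0.44, adjusted p = 0.654 by edgeR). The next genes were Slc1a5, a glutamine transporter, Slc19a1, the reduced folate carrier, and Slc25a44, a mitochondrial carrier of branched-chain amino acids, with fitted values of -1.10, -0.74 and -0.84 and overlapping groups. Slc1a5 was at -0.58 without wild-type replicate 3, and Slc25a44 at -0.52 without wild-type replicate 1 and -0.54 without homozygous replicate 3.

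Groups did not overlap, with homozygous higher, for 5 of the 142 genes (Slc9a9, Slc39a10, Slc39a13, Slc7a6os and Slc17a9), where this held for 4.4% of all genes tested. They did not overlap with homozygous lower for 3 (Slc35a4, Slc15a4 and Slc35b4), against 3.57%. Both counts are near or under the background. Slc35b4, a Golgi nucleotide sugar carrier, was at 94.3, 97.0 and 102 CPM in wild-type and 81.1, 83.6, 81.0 and 59.1 CPM in homozygous libraries.

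**Figure D3:**
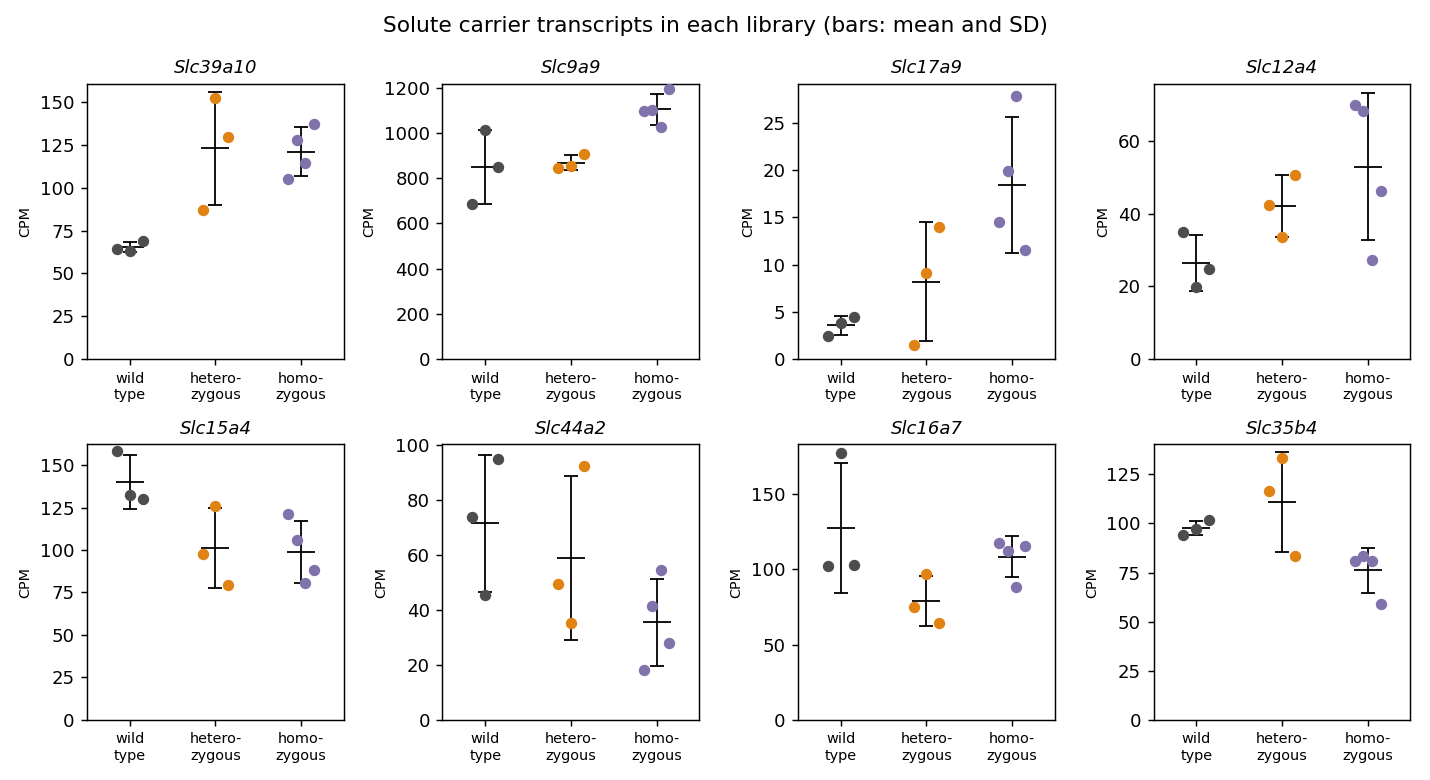
CPM (y axis, from 0) of 8 solute carriers in every library (points) of the 3 genotypes, with mean and SD. Slc39a10 is lowest in the 3 wild-type libraries, at 63.03 to 68.9 CPM, Slc15a4 is highest in them, at 130 to 158 CPM, and none of the differences passed the test over all genes.

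Between heterozygous and wild-type libraries 0 of the 142 genes were called, and the background was 0%. At an unadjusted p under 0.05 there were 5, 2 higher and 3 lower, against 3.42% and 2.4% of all genes and 5.82% for both directions. Limma-voom called 0, against 0% of all genes, and DESeq2 called 1, Slc39a10, against 1.67%. Besides Slc39a10, the higher gene was Slc25a38, a mitochondrial glycine carrier, at 6.81, 11.99 and 3.89 CPM in wild-type and 36.7, 26.3 and 11.5 CPM in heterozygous libraries, which overlapped (log2 fold change 1.71, SE 0.67, adjusted p = 0.791 by edgeR). The lower genes were Slc16a7, Slc6a6 and Slc35c2. Slc16a7 was at 102, 177 and 103 CPM in wild-type and 75.3, 96.9 and 64.7 CPM in heterozygous libraries (log2 fold change -0.69, SE 0.25, adjusted p = 0.791 by edgeR), and without wild-type replicate 2 the value was -0.38. Slc6a6 was at 287, 362 and 302 CPM and at 239, 264 and 237 CPM. Slc35c2, a Golgi carrier related to the GDP-fucose transporter, was at 113, 113 and 111 CPM and at 94.9, 51.3 and 78.9 CPM, and its homozygous libraries, at 86.3 to 134 CPM, overlapped the wild-type ones. Its log2 fold change was -0.58, and -0.37 without heterozygous replicate 2. None of these passed. Heterozygous and wild-type groups did not overlap for 6 higher and 5 lower genes, against backgrounds of 5.43% and 4.16%.

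Between homozygous and heterozygous libraries 0 of the 142 genes were called, against 0.0214% of all genes, and limma-voom and DESeq2 also called 0, against 0.0143% and 0.995%. At an unadjusted p under 0.05 there were 3 higher (Slc9a9, Slc7a6os and Slc35c2) and 3 lower (Slc35b4, Slc2a1 and Slc39a14), against 2.65% and 2.2% of all genes and 4.86% for both directions. The groups did not overlap for 3 higher and 6 lower genes, against 3.75% and 3.72%. Slc2a1 was at 28.7, 52.7 and 50.3 CPM in heterozygous and 18.96, 26.5, 16.6 and 26.2 CPM in homozygous libraries, without overlap, and its wild-type values of 22.5, 12.7 and 40.9 CPM spanned much of both (log2 fold change -0.99, SE 0.40, adjusted p = 1 by edgeR). Slc39a14, a zinc, iron and manganese importer, was at 35.2, 51.4 and 45.3 CPM in heterozygous, 23.1, 14.2, 5.42 and 21.9 CPM in homozygous and 6.16, 13.5 and 38.6 CPM in wild-type libraries (log2 fold change -1.44, SE 0.62, adjusted p = 1 by edgeR).

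**Figure D4:**
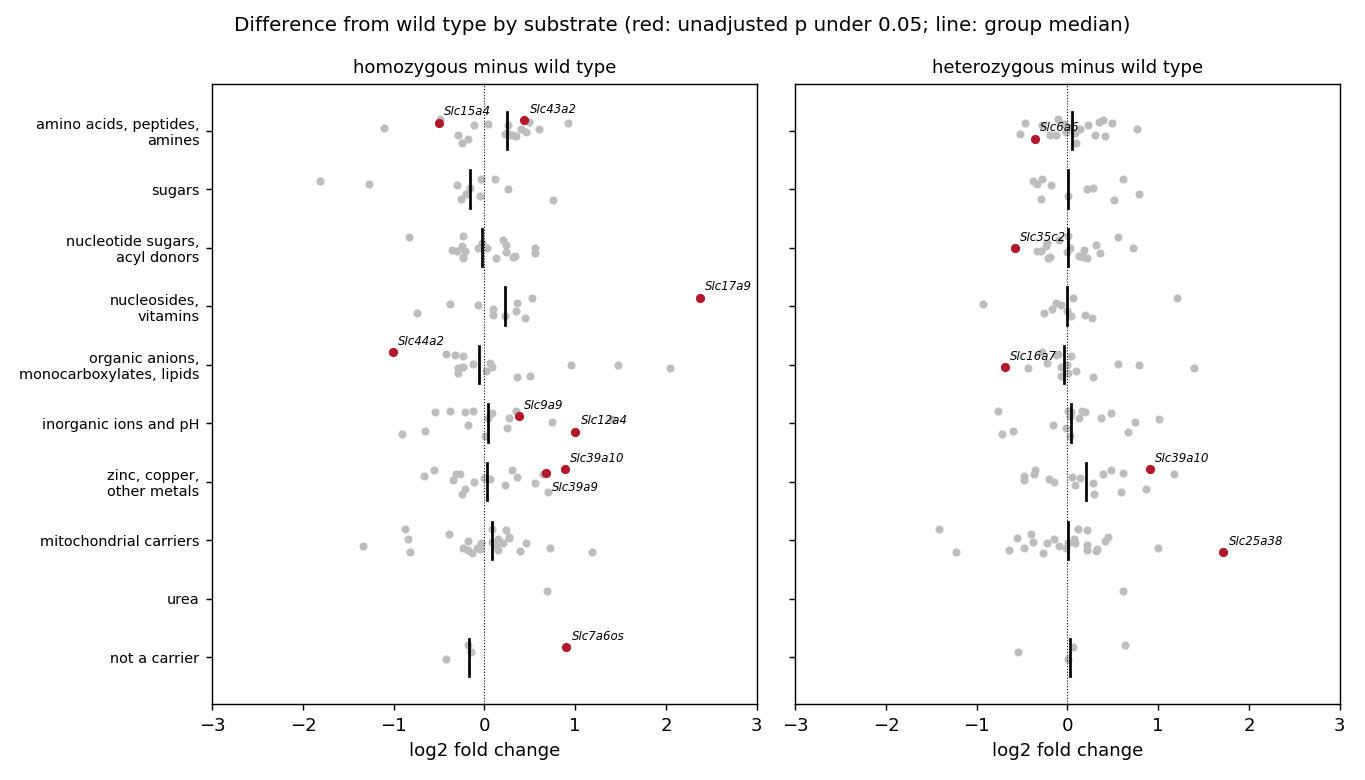
Log2 fold change (x axis) of each of the 142 genes by substrate (y axis) for homozygous (left) and heterozygous (right) against the same wild-type libraries; red points have an unadjusted p under 0.05 and black lines are group medians. Group medians lie between -0.16 and 0.25 on the left and between -0.04 and 0.21 on the right for groups of 4 or more genes, and 0 genes passed the test.

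By substrate, the medians of homozygous against wild-type values ran from -0.16, for sugars and for the symbols that name no carrier, to 0.25, for amino acids, and lay at 0.23 for nucleosides and vitamins, 0.08 for mitochondrial carriers and -0.02 for nucleotide sugars. Of the amino acid carriers 13 of 20 were fitted above 0, of the sugar carriers 3 of 11, and 0 were called in each. In heterozygous libraries the metal carriers had the highest median, 0.21, with 12 of 18 fitted above 0 and 0 called. Of all 142 genes 80 were fitted above 0 there, against a background of 50.7%. Differences were small for most genes, with 103 of 142 within 0.5 on the log2 scale between homozygous and wild-type libraries (72.5%, against 57.2% of all genes tested, many of which are counted at lower levels).

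Each genotype held mice with the letter m and with the letter f in the sample titles, 6 and 4 in all, and the letter matched the counts of Xist or of Y-linked genes in 10 of 10 libraries. With genotype in the model, 0 of the 142 genes were called between f and m libraries, against 0.0214% of all genes. At an unadjusted p under 0.05 there were 13, 8 higher and 5 lower in f libraries, or 9.15% against a background of 6.14% (3.1% higher and 3.04% lower). The letters did not overlap for 1 higher and 2 lower genes, against 0.727% and 0.663%. Limma-voom and DESeq2 also called 0, against 0.0428% and 1.34% of all genes. Slc25a39, the mitochondrial glutathione carrier, was at 163, 179, 206 and 163 CPM in the f libraries, and its lowest, median and highest values in the m libraries were 126, 144 and 159 CPM, without overlap (log2 fold change 0.32, SE 0.10, adjusted p = 0.746 by edgeR). Slc41a3, of a family of magnesium carriers, was at 16.4, 28.3, 25.0 and 19.8 CPM in f libraries and from 32.6 through a median of 36.6 to 41.6 CPM in m libraries, also without overlap (log2 fold change -0.74, SE 0.23, adjusted p = 0.746 by edgeR). Slc4a1ap was at 10.8 to 14.8 CPM in f and 17.3 to 49.0 CPM in m libraries. Slc15a4 was lower in f than in m libraries as fitted (-0.37, SE 0.13, adjusted p = 0.756 by edgeR), with overlap.

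Genes that work with these carriers were measured as a list of 23, among them the chaperones of the lactate carriers, the lysosomal nutrient-sensing complex, the kinases of the chloride co-transporters and the proteins that act with Slc15a4. Of the 23, 0 were called in any genotype comparison. At an unadjusted p under 0.05, 1 was higher and 2 were lower between homozygous and wild-type libraries, where 4.56% and 2.96% of all genes were. Wnk1, a kinase that acts on the Slc12 co-transporters, had -0.60 (SE 0.20, adjusted p = 0.567 by edgeR). Irf5, a transcription factor activated through Slc15a4 and Tasl, was at 329 ± 67.9 CPM (n = 3) in wild-type and 222 ± 52.2 CPM (n = 4) in homozygous libraries (log2 fold change -0.57, SE 0.21, adjusted p = 0.624 by edgeR). Tasl itself was at 49.3 ± 11.2 CPM (n = 3) in wild-type and 33.8 ± 10.4 CPM (n = 4) in homozygous libraries (log2 fold change -0.55, SE 0.35, adjusted p = 0.867 by edgeR). In heterozygous libraries Irf5 was at 294 ± 52.8 CPM and Tasl at 60.4 ± 24.8 CPM (n = 3). Against wild type their fitted values there were -0.16 and 0.29, so Tasl was not lower. Both were fitted lower in f than in m libraries, at -0.37 and -0.59, and neither was called. Of the 23, 5 were fitted above 0 between homozygous and wild-type libraries, against 51.1% of all genes, with a median of -0.16. Bsg, the chaperone of the lactate carriers, was at 562 ± 87.5 and 549 ± 49.8 CPM (n = 3 and n = 4).

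A list of 27 carriers whose symbols do not start with Slc and a digit held 22 tested genes, of which 0 were called in any genotype comparison. Their median between homozygous and wild-type libraries was -0.16, with 10 of 22 above 0, against the same 51.1%. Slco2b1, an organic anion transporter, was the most counted, at 1255 ± 199 CPM (n = 3) in wild-type, 1306 ± 129 CPM (n = 3) in heterozygous and 1343 ± 134 CPM (n = 4) in homozygous libraries. Ucp2, a mitochondrial carrier, was at 923 ± 69.1 CPM (n = 3) and 823 ± 103 CPM (n = 4) in wild-type and homozygous libraries, and Mfsd1, a lysosomal carrier, at 512 ± 125 and 593 ± 74.4 CPM (n = 3 and n = 4).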

How the data were processed

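The deposited values are raw counts, 1 row per symbol and 1 column per library (10). The submitters' processing notes name bcl2fastq 2.20, STAR 2.7.8a and featureCounts 2.0.2, with no role stated, and no source used here gives the genome build, annotation or strand setting. From the deposited counts, 14023 genes passed filterByExpr, run by genotype with a count of 10 and a total of 15 as minimums, and libraries were scaled by TMM. Printed CPM use the scaled totals, and the rule for the genes uses column totals. Genotype was the only term in edgeR 4.0.16 (R 4.3.3) with all 10 libraries, robust dispersions and Benjamini-Hochberg adjustment over all genes (call at adjusted p under 0.05); the title letter was tested with genotype in the model. Each SE was derived from the log2 fold change and F. Libraries of 1 genotype differed well beyond counting noise (chi-square from 87.1 per gene), so none was a repeat deposit. Each library is labelled as 1 mouse. Exon lengths are GENCODE vM21 unions. The genes and lists were chosen with earlier results of these data known. Substrate groups follow carrier families, and Slc49a4 and Slc18b1 were reassigned after the members were listed. Named genes are those called, filled to 5 per direction by p, and the 4 most counted of each substrate group; others were chosen after their values were seen. Tests were tried on data simulated with edgeR's dispersion estimates (200 genes changed, 13136 genes): edgeR made 33 calls, 0 false, and DESeq2 1.42.0 made 166, 96 false. Alternatives were other scalings, filters, tools (limma 3.58.1), covariates and each library left out. Values of 2 genes, 1 solute carrier and 1 partner gene, are not reported here, and both stay in the counts.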

Additional observations from a re-analysis of the deposited data

Results flagged for a closer look

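Of 55 named genes, 5 had a homozygous library set far apart from the other 3 by the gap to its nearest neighbour over the range, Dixon's criterion; chance gives about 1 in 20. Slc3a2 was at 400.3 CPM in homozygous replicate 3 and 522.6 to 532.0 CPM in the others. Slc25a16 was at 38.9 CPM in homozygous replicate 3 and 19.1 to 22.1 CPM in the others. Slc25a3 was at 184.1 CPM in homozygous replicate 4 against 209.2 to 214.4 CPM, and Slc35b4 at 59.1 CPM in that library against 81.0 to 83.6 CPM. Slc4a1ap was at 49.0 CPM in homozygous replicate 2 and 13.1 to 17.5 CPM in the others.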

How the results depend on the processing

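The count of solute carriers called was 0 in all 4 comparisons under edgeR and stayed 0 under every alternative except DESeq2, which called 2 between homozygous and wild-type libraries and 1 between heterozygous and wild-type libraries; with each library left out it ran from 0 to 0. DESeq2 also made 96 false calls of 166 on simulated counts. Those counts were drawn with edgeR's own dispersion estimates, so they cannot settle whether the DESeq2 calls here are false. Of 780 alternative values for the 40 named differences, 0 changed direction and 3 gained a call, all by DESeq2. The 40 were picked for the smallest p per direction in these same libraries, so their kept direction is no independent support. The number at an unadjusted p under 0.05, 9 between homozygous and wild-type libraries, ran from 6 to 14 as each library was left out, and from 5 to 12 around 5 for heterozygous against wild type. It was 6, 3 to 8, for homozygous against heterozygous and 13, 10 to 18, for the title letter. With the replicate number as a block, 0 were called in each genotype comparison. Libraries that share a number correlated at -0.012 to 0.035, and those with different numbers at -0.047 to 0.048. These correlations showed no pairing of mice by number, and they cannot exclude a weak one. The block could not be fitted for the title letter, which is fixed by the number. Depth limits the genes near 10 CPM most, of which 7 had a library with 0 counts, and reads were counted without molecular identifiers, so amplification copies are included.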

Other observations

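Some carriers below the threshold of 10 CPM were counted in wild-type libraries above it. The 2 described here were chosen after their values were seen, for a low mean with a higher wild-type level, so their direction follows from the choice; others under the threshold, such as Slc2a3 at up to 28.4 CPM in wild-type and 18.4 CPM in homozygous libraries, overlapped. Slc7a5, a light chain that pairs with Slc3a2 to import large neutral amino acids, was at 10.3, 17.5 and 12.9 CPM in wild-type, 1.38, 1.26 and 4.45 CPM in heterozygous and 0.0363, 2.21, 4.80 and 3.53 CPM in homozygous libraries. Slc16a3, a lactate exporter, was at 12.2, 17.7 and 10.4 CPM in wild-type, 5.24, 0 and 5.70 CPM in heterozygous and 0, 3.57, 4.04 and 2.503 CPM in homozygous libraries. The log2 fold change between homozygous and wild-type libraries was -2.36 (SE 1.18, adjusted p = 0.701) for Slc7a5 and -2.41 (SE 1.70, adjusted p = 0.923) for Slc16a3 by edgeR, and neither passed. Of 232 eligible carriers under the threshold, 63 were tested and 0 were called in any genotype comparison. By edgeR, 3 were at an unadjusted p under 0.05 between homozygous and wild-type libraries, or 4.76% against 7.52% of all genes. All 3 were higher in homozygous libraries and 0 were lower, the opposite direction to Slc7a5 and Slc16a3.

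Slc39a12, a zinc transporter, is the nearest protein-coding gene on 1 side of Mrc1 in GENCODE vM21. It had 95 counts in all, in 4 of 10 libraries, and at most 1.76 CPM in any library. Slc22a8, a carrier of brain endothelium that the rule leaves under the threshold, had 0 counts in every library.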
